A study of Mus musculus with 2 samples.

Results

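The glycolysis and hypoxia genes described here are 38 of the 32285 genes in the count tables, chosen by gene symbol: 20 glucose transporters, glycolytic enzymes and their regulators, and 18 other genes of the hypoxia response. Their unique molecular identifiers (UMIs, tags that count single captured RNA molecules) were summed over the cells of each leukocyte class, separately in each library. Levels are given as CPM, the UMIs of a gene per 1000000 UMIs of the class. The cells were CD45+ leukocytes sorted from subcutaneous B16F10-OVA tumours and profiled with the 10x Genomics droplet method; B16F10 is a mouse melanoma line, here carrying the model antigen ovalbumin, and CD45 is a surface protein of leukocytes. The PBS group received a saline buffer, and the UDSP-Hep group an agent that the labels name without describing it. In both groups injections fell on days 10, 12, 14 and 16 and tumours were taken on day 19, with 3 tumours and 10000 loaded cells behind each library. Strain, sex and age of the mice are not given in the sources used here. Each group is 1 library whose cells cannot be traced to single tumours. There was thus no replicate, no test of the treatment was possible, and every interval covers counting error only.

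After filtering, 6717 PBS cells with a median of 7874 UMIs and 7194 UDSP-Hep cells with a median of 5483 UMIs remained. The libraries shared 25 cell barcodes, 20 of them among the kept cells. Classes were gated cell by cell from marker genes that hold no member, and the 13 named classes that held 30 cells or more in both libraries were compared. Of the cells gated as phagocytes, 666 PBS and 511 UDSP-Hep cells fitted no subclass, and of the T cells 289 and 312 fitted none; these mixed remainders are described apart, and class rankings leave them out unless they are named. Class names are short forms: "macrophages" stands for macrophage-like cells, and none is the authors' annotation. Since the markers placed the cells, their levels describe the gate and test nothing: among all mononuclear phagocytes (3943 PBS and 2863 UDSP-Hep cells), Csf1r was at 518 and 632 CPM and the T cell gene Cd3e at 8.44 and 22.2 CPM. Neutrophils numbered 44 in the PBS library against 624, nonclassical monocytes 107 against 397, natural killer (NK) cells 452 against 1458, and classical monocytes 2412 against 1412. Eosinophils (1 PBS cell) and type 1 conventional dendritic cells (21 UDSP-Hep cells) were too few to compare.

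Glycolysis breaks glucose down to pyruvate in the cytosol, and cells short of oxygen or in rapid activation turn much of that pyruvate into lactate. When oxygen is scarce, the prolyl hydroxylases that normally mark hypoxia-inducible factor (HIF) alpha subunits for destruction lose activity, and HIF then binds a short core element in the control regions of its targets. These targets include most glycolytic genes as well as genes for mitophagy, lipid storage, protein oxidation and the hydroxylases themselves. Myeloid cells in poorly perfused parts of tumours are a classical place of this response, and activated lymphocytes use glycolysis too.

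The promoters of the members were read for the HIF core, searched as ACGTG and GCGTG on both strands with overlaps allowed, in the 250 bases before each annotated start (RefSeq, GRCm38.p6). Of the 38 members 35 had an entry, Ero1l under its other name Ero1a, and 32 of these genes (91.4%) held the core at one start or more, beside 11226 of 27025 genes (41.5%) over all entries. At least 2 cores were present in 65.7% of the member genes and 18.7% of all genes. These shares take the start with most cores, so genes with more annotated starts have more windows to hold one. Counted by window, the core was in 41 of 52 member windows (78.8%) and in 38.6% of all 32851. Both motifs contain a CG dinucleotide, and the member windows were rich in them, with a median of 19 against 6 in all windows. Among windows with at least 19 CG dinucleotides, the core was in 25 of 27 member windows (92.6%) and in 69.9% of all 6482, and the part that base composition has in the difference was not tested. A match is a run of letters, not a shown binding site. The promoters of 4 members that recur below are shown 5′ to 3′ on the gene's strand, with the core in capitals. Each stretch lies outside the gene's own body in GENCODE M21, and overlap with other annotated genes was not checked. Pgk1 (chrX:106186850-106187099, plus strand) is a glycolytic enzyme gene with cores on both strands. The other 3 are hypoxia members that were lower in UDSP-Hep phagocytes: Adm (chr7:110627407-110627656, plus strand), Egln3 (chr12:54203875-54204124, minus strand) and Bnip3 (chr7:138909520-138909756, minus strand). The stretches of this kind for Hilpda, Mxi1 and Tpi1, which were also lower in UDSP-Hep phagocytes, held no core. Whether cores go with the difference between the libraries was not tested.
Pgk1: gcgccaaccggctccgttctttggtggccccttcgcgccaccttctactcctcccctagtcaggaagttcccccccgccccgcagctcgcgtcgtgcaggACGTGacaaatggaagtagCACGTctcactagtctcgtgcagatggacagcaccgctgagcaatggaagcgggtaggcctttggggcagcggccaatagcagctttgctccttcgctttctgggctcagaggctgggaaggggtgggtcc
Adm: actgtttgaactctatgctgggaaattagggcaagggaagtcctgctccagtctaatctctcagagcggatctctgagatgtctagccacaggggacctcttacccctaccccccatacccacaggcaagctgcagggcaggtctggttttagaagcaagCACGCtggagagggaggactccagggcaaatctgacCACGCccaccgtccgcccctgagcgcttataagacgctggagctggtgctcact
Egln3: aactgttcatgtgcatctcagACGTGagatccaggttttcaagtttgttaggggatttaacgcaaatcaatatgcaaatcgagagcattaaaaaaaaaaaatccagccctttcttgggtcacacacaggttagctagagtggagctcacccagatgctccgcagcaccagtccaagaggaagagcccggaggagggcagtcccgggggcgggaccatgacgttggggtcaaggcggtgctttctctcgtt
Bnip3: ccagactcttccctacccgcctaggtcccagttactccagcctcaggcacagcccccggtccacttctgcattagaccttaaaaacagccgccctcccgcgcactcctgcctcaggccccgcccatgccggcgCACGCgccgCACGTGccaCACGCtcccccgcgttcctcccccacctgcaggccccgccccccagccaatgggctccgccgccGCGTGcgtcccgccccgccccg
Egln3 held 1 core, Adm and Pgk1 held 2 each, and the Bnip3 stretch of 237 bases held 5, of which 2 overlap in the palindrome CACGTG.

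Summed over each list and among the 13 named classes, the members made up the largest share of the transcriptome in macrophages, classical monocytes and neutrophils for glycolysis, and in basophils and regulatory T cells among others for the hypoxia genes. The 20 glycolytic members together reached 12098 and 8502 CPM in macrophages and 10503 and 7974 CPM in classical monocytes, PBS value first, as in all pairs of values here. In NK cells the same sum was 3654 and 2786 CPM, and in B cells 2698 and 1647 CPM. The 18 other hypoxia members reached their highest PBS sum among the named classes in basophils, with 4053 and 2679 CPM, and their lowest in plasmacytoid dendritic cells, with 731 and 617 CPM. In the UDSP-Hep library regulatory T cells (3299.9 and 3029 CPM) and conventional CD4 T cells (2005 and 2949 CPM) had the highest sums. Few members made up much of these sums. Hif1a alone stood at 1382 CPM in UDSP-Hep regulatory T cells and 1342 CPM in UDSP-Hep CD4 T cells. In PBS basophils Ero1l, Hilpda and Ddit4 stood at 1949, 959 and 521 CPM. UDSP-Hep cells had the lower glycolytic sum in all 13 classes and the lower hypoxia sum in 12 of 13, CD4 T cells being the exception. The mixed phagocytes stood above the named classes in the glycolytic sum, at 12956 and 9026 CPM, and in the PBS hypoxia sum, at 4338 and 2829.7 CPM.

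**Figure D1:**
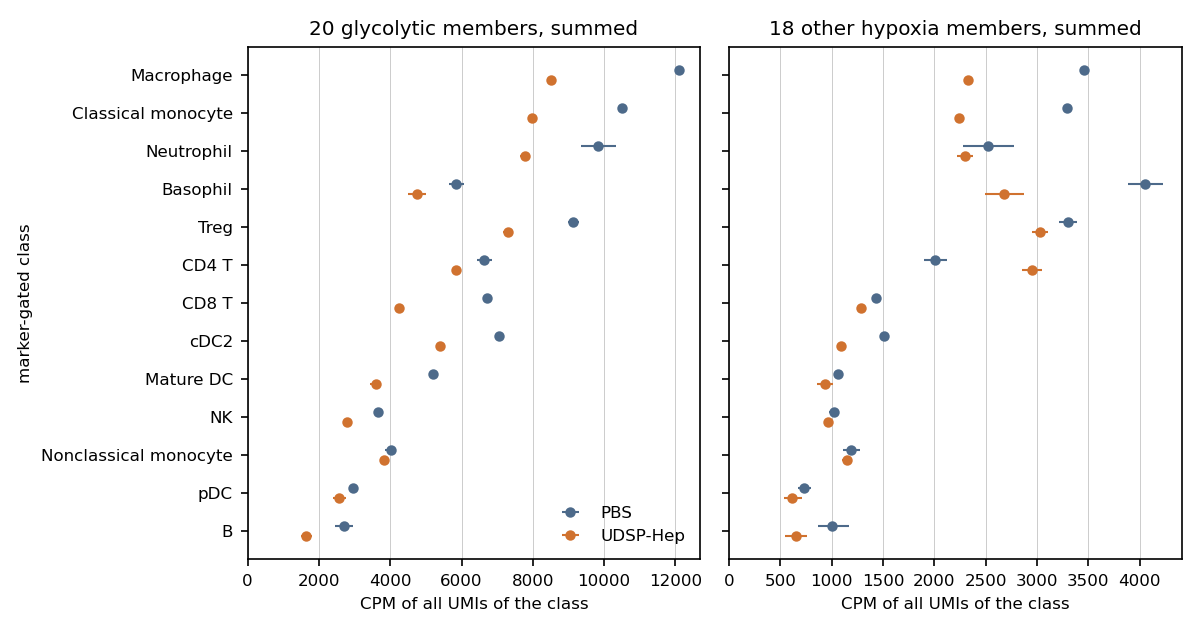
Summed level of the 20 glycolytic members (left) and the 18 other hypoxia members (right) in 13 leukocyte classes, in CPM of the class. Points are libraries (PBS blue, UDSP-Hep orange), bars are exact Poisson 95% intervals, and the UDSP-Hep point lies to the left of the PBS point in every class except CD4 T cells on the right, where the sums were 2005 and 2949 CPM.

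Some members had a class that led the 13 by a wide margin in both libraries. Pfkfb3, which makes the activator of phosphofructokinase, was highest in mature dendritic cells, at 398 and 703 CPM, which was 2.68 and 3.57 times the next class. Slc16a3, the exporter of lactate, was highest in neutrophils at 790.1 and 1148 CPM, 2.06 and 2.69 times the next class. Macrophages were the leading class for 7 glycolytic members in each library, 6 of them the same, and for Aldoa, Tpi1, Gapdh and Pgam1 the counting intervals of the leading and the next class did not overlap in either library. The mixed phagocytes had Gapdh at 3439 and 2143 CPM and Tpi1 at 1005 and 593 CPM, against 3269 and 1999 CPM and 933 and 621 CPM in macrophages.

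Among the other hypoxia members, Ero1l, an oxidase that forms disulfide bonds in the endoplasmic reticulum, was highest in basophils at 1949 and 957 CPM, 3.96 and 2.57 times the next class. Hilpda, an inhibitor of triglyceride breakdown that coats lipid droplets, was also highest there, at 959 and 605 CPM. Egln3, a HIF prolyl hydroxylase that HIF itself induces, was highest in neutrophils, at 216 and 269 CPM, 1.80 and 4.64 times the next class. Hif1a, the oxygen-sensitive HIF subunit, was highest in regulatory T cells at 1230.4 and 1382 CPM, with CD4 T cells next at 940.3 and 1342 CPM; in the UDSP-Hep library these neighbours did not differ beyond their counting intervals.

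Mononuclear phagocytes gave the deepest view of the 2 libraries, with 39449698 and 30388543 UMIs. In these cells most of the other hypoxia members and some glycolytic members were lower in the UDSP-Hep library. A member was counted as lower or higher where its CPM differed by at least 1.5-fold and the counting interval of the ratio left out equality. By this rule 11 of 18 hypoxia members and 5 of 20 glycolytic members were lower and none was higher, while 4.22% of all 12771 genes measured in phagocytes (at least 20 summed UMIs) were lower and 10.9% were higher. The median log2 ratio, UDSP-Hep over PBS, was -0.85 over the hypoxia members, -0.46 over the glycolytic members and 0.13 over all genes.

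Adm, which encodes the vasodilator peptide adrenomedullin, showed the largest difference. Its level was 37.3 CPM (35.4 to 39.2) in PBS cells and 6.29 CPM (5.43 to 7.24) in UDSP-Hep cells, a ratio of 0.169 (0.144 to 0.196). Ankrd37, an ankyrin-repeat protein and HIF target, was at 54.0 CPM (51.8 to 56.4) in PBS cells and 21.6 CPM (19.9 to 23.3) in UDSP-Hep cells, a ratio of 0.399 (0.365 to 0.436). Ndrg1, a stress-responsive gene long used as a hypoxia marker, was at 325 CPM (319.7 to 331) in PBS cells and 135 CPM (131 to 139) in UDSP-Hep cells, a ratio of 0.415 (0.400 to 0.430). All 3 genes were lower in UDSP-Hep than in PBS phagocytes, and the counting intervals of the 2 libraries were far apart.

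The feedback and metabolic arms of the response lay on the same side. Egln3 was at 116 and 52.5 CPM, a ratio of 0.454 (0.429 to 0.481), whereas Egln1, the hydroxylase that sets HIF levels in normal oxygen, differed less, with a ratio of 0.725 (0.693 to 0.757). Ero1l was at 487 and 228 CPM, a ratio of 0.469 (0.456 to 0.482) and Hilpda at 439.8 and 212 CPM, a ratio of 0.481 (0.468 to 0.495). Bnip3, a mitophagy receptor, was at 329 and 169 CPM, a ratio of 0.514 (0.498 to 0.531), while its relative Bnip3l had a ratio of 0.874 (0.842 to 0.908) and did not count as lower. Mxi1, a MYC antagonist, the mitochondrial adenylate kinase Ak4, the respiratory-chain factor Higd1a and the collagen prolyl hydroxylase subunit P4ha2 completed the 11, with ratios of 0.554, 0.532, 0.553 and 0.652.

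Hif1a itself was not lower. Its level was 552 CPM (544 to 559) in PBS cells and 685 CPM (676 to 695) in UDSP-Hep cells, a ratio of 1.24 (1.22 to 1.27), and it had a ratio above 1 in 12 of 13 classes without reaching 1.5-fold in any. The other hypoxia members that did not count as lower were Gys1 (muscle-type glycogen synthase), Ddit4 (an inhibitor of mTORC1), the histone demethylase Kdm3a and the collagen prolyl hydroxylase subunit P4ha1, with ratios between 0.707 and 0.878. Just inside the threshold of 1.5-fold lay P4ha2, at 0.652, and just outside it Gys1.

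Along the glycolytic route, the lower members lay at glucose entry, at phosphofructokinase, in the triose steps and at lactate formation. Slc2a1, the main inducible glucose transporter, was at 319 CPM (314 to 325) in PBS cells and 161 CPM (157 to 166) in UDSP-Hep cells, a ratio of 0.505 (0.488 to 0.522). Ldha, which turns pyruvate into lactate, was at 894 and 573 CPM, a ratio of 0.641 (0.629 to 0.653). Gapdh and Tpi1, enzymes of the triose steps, were at 2843 and 1838 CPM and at 801 and 527 CPM, with ratios of 0.646 and 0.658. Pfkp, the platelet-type phosphofructokinase, was the fifth member counted as lower, at 222 and 145 CPM. A further 5 enzymes, Eno1, Pgk1, Pkm, Gpi1 and Pgam1, had ratios between 0.708 and 0.726, none of which counted as lower. The myeloid hexokinase Hk3, the bifunctional regulator Pfkfb4 and the lactate exporter Slc16a3 were level or slightly above, with ratios of 1.06, 1.07 and 1.02. The remaining members Slc2a3, Hk1, Hk2, Pfkl, Pfkfb3, Aldoa and Pdk1 had ratios between 0.678 and 0.876.

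**Figure D2:**
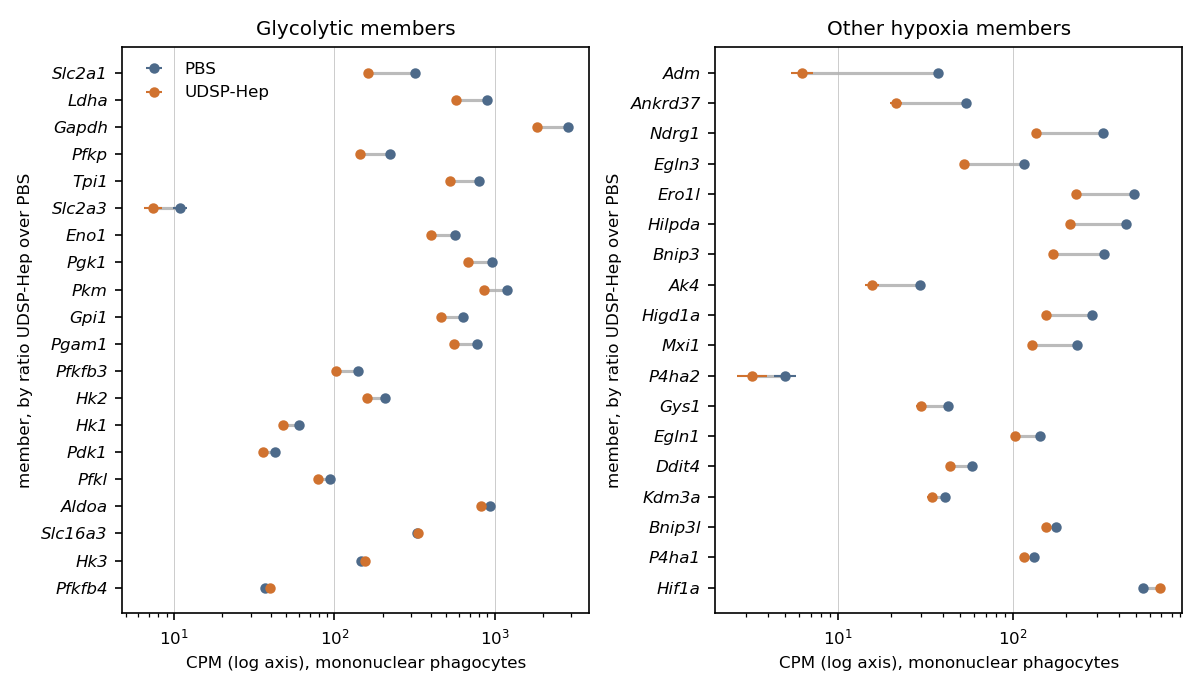
Level of each member in mononuclear phagocytes of the PBS (blue) and UDSP-Hep (orange) library, in CPM on a log axis, ordered by their ratio; bars are exact Poisson 95% intervals. The gap is widest for Adm (37.3 and 6.29 CPM), and Hif1a is the hypoxia member whose UDSP-Hep point lies to the right (552 and 685 CPM).

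Several measures moved with this difference, and their part in it was not tested. The count of lower glycolytic members depended on the scaling: it was 11 with median-of-ratios scaling and 10 with every cell thinned to 1000 UMIs, beside the 5 given above. It was 2 when the phagocyte subclasses were weighed the same, while the hypoxia count stayed between 10 and 13 over all planned settings. Phagocytes with over 0.05% of their UMIs from the heat-shock genes Hspa1a and Hspa1b made up 28.7% of the PBS and 6.36% of the UDSP-Hep phagocytes, and their share was the larger one in the PBS library in each of the 13 classes, plasmacytoid dendritic cells being at 1 and 0 cells. Without them 11 of 18 hypoxia members and 1 of 20 glycolytic members, Slc2a1, were lower. No share of all genes is given for these recomputed counts, here or in the classes below, so they have no background beside them. Markers of neutrophils summed to 176 and 503 CPM in the phagocytes and NK markers to 10.5 and 64.2 CPM, and the summed melanoma markers were at 46.4 and 47.0 CPM. In a class sum, fewer cells with a gene's RNA and less of it per cell cannot be told apart.

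The subclasses of phagocytes were also read one by one. In macrophages (758 and 543 cells) 12 of 18 hypoxia members and 5 of 20 glycolytic members were lower, with 4.66% of all genes lower and 11% higher; the median log2 ratio was -0.80 over the hypoxia and -0.43 over the glycolytic members, against 0.090 for all genes. Adm was at 52.7 and 10.2 CPM, Ndrg1 at 337 and 142 CPM and Mxi1 at 259 and 126 CPM, with ratios of 0.193 (0.152 to 0.243), 0.421 (0.394 to 0.450) and 0.487 (0.453 to 0.523). Slc2a1, Gapdh, Eno1, Ldha and Tpi1 were the lower glycolytic members, with Slc2a1 at 296 and 152 CPM, Gapdh at 3269 and 1999 CPM and Ldha at 1021 and 647 CPM. Without the heat-shock-rich cells 11 hypoxia and 4 glycolytic members were lower.

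In classical monocytes (2412 and 1412 cells) 12 of 18 hypoxia members were lower but only 2 of 20 glycolytic members, Slc2a1 and Slc2a3, both glucose transporters; 3.4% of all genes were lower and 9.6% higher. The median was -0.82 for the hypoxia and -0.36 for the glycolytic members, against 0.15 for all genes. The level of Adm was 26.4 CPM (24.2 to 28.6) in PBS cells and 2.01 CPM (1.34 to 2.91) in UDSP-Hep cells, a ratio of 0.0763 (0.0502 to 0.111). Hilpda was at 388 and 161 CPM, Ndrg1 at 292 and 129 CPM and Ero1l at 492 and 226 CPM, with ratios of 0.415 (0.396 to 0.435), 0.441 (0.419 to 0.465) and 0.459 (0.441 to 0.478). Slc2a1 was at 325 and 176 CPM, a ratio of 0.540 (0.515 to 0.565), and Slc2a3, the high-affinity transporter, at 13.4 and 7.54 CPM. The glycolytic count was 10 after thinning, 8 with median-of-ratios scaling and 0 without the heat-shock-rich cells, which were 28.3% of the PBS and 6.52% of the UDSP-Hep classical monocytes.

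Nonclassical monocytes, the patrolling subset (107 and 397 cells), had low levels of most members in both libraries and a small difference. Of 14 hypoxia members measured 3 were lower (Ndrg1, Ero1l and Bnip3) and 1, P4ha1, was higher, and of 19 glycolytic members only Slc2a1 was lower, with 2.64% of all genes lower and 6.07% higher. Bnip3 was at 60.9 and 21.1 CPM, a ratio of 0.347 (0.224 to 0.540), and Slc2a1 at 82.2 and 39.7 CPM. P4ha1 was at 50.2 and 85.3 CPM, and its log2 ratio was -0.24 after thinning to 1000 UMIs. The hypoxia median was -0.17 and the glycolytic median -0.023, against 0.10 for all genes. The hypoxia median changed sign under several settings given below, as did the ratios of Slc2a1, Ndrg1 and Bnip3 when the classes were taken from clusters.

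The mixed phagocytes had 11 of 18 hypoxia members and 4 of 20 glycolytic members lower and none higher, with 4.91% of all genes lower and 9.86% higher. The median was -0.85 for hypoxia and -0.44 for glycolysis, against 0.094 for all genes. Ndrg1 was at 447 and 184 CPM, a ratio of 0.413 (0.384 to 0.443), and Adm at 53.5 and 13.6 CPM, a ratio of 0.254 (0.196 to 0.327). The lower glycolytic members were Slc2a1, Tpi1, Gapdh and Ldha, with Slc2a1 at 359 and 189.7 CPM.

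Within the phagocytes the members were unevenly spread over cells. Cells were thinned to 2000 UMIs (132 and 96 shallower cells were left out) and ranked by the summed UMIs of the hypoxia members, leaving out the member described. In the 10% of cells that ranked highest (381 PBS and 276 UDSP-Hep cells), 17 of 18 hypoxia members were at least 1.5-fold above the other cells in each library, with median ratios of 4.64 and 5.64, while 10.2% and 9.96% of all genes were that much higher and the median over all genes was 0.758 and 0.849. Hif1a was the exception, with ratios of 1.17 and 1.43. Ero1l reached 2136 CPM in these cells against 380.5 CPM in the other PBS cells, and 1199 against 118 CPM in the UDSP-Hep library. Egln3 was at 599.7 against 87.2 CPM and at 438 against 21.7 CPM. Both the top cells and the other cells had lower levels of both genes in the UDSP-Hep library. The 10% was cut in each library on its own, so the top groups did not stand at equal ranking sums. Their median ranking sum was 21 (PBS) and 13 (UDSP-Hep) UMIs for Ero1l, and 25 and 15 for Egln3.

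The glycolytic members, which had no part in the ranking, were higher in the same cells. Of 20, 17 (PBS) and 18 (UDSP-Hep) were at least 1.5-fold higher, with median ratios of 2.32 and 2.71. Slc2a1 was at 1190.3 against 269.8 CPM and at 625 against 109 CPM, and Gapdh at 5939.6 against 2494 CPM and 3893 against 1413 CPM. Hk3 (0.934 and 1.13) and Pfkfb4 (0.632 and 0.647) did not follow, and Slc16a3 passed 1.5-fold only in the UDSP-Hep library (1.19 and 1.86). Among genes outside the module, the angiogenic factor Vegfa was 5.14-fold and 5.33-fold higher in these cells, Nos2 (inducible nitric oxide synthase) 9.40-fold and 12.3-fold, and Arg1 (arginase) 2.52-fold and 5.33-fold. The macrophage gene C1qa was lower there, at 0.372 and 0.450 times the other cells, as was the classical monocyte gene Ly6c2, at 0.486 and 0.553 times. Each is a single marker of its class, and the other markers are not given for these cells.

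**Figure D3:**
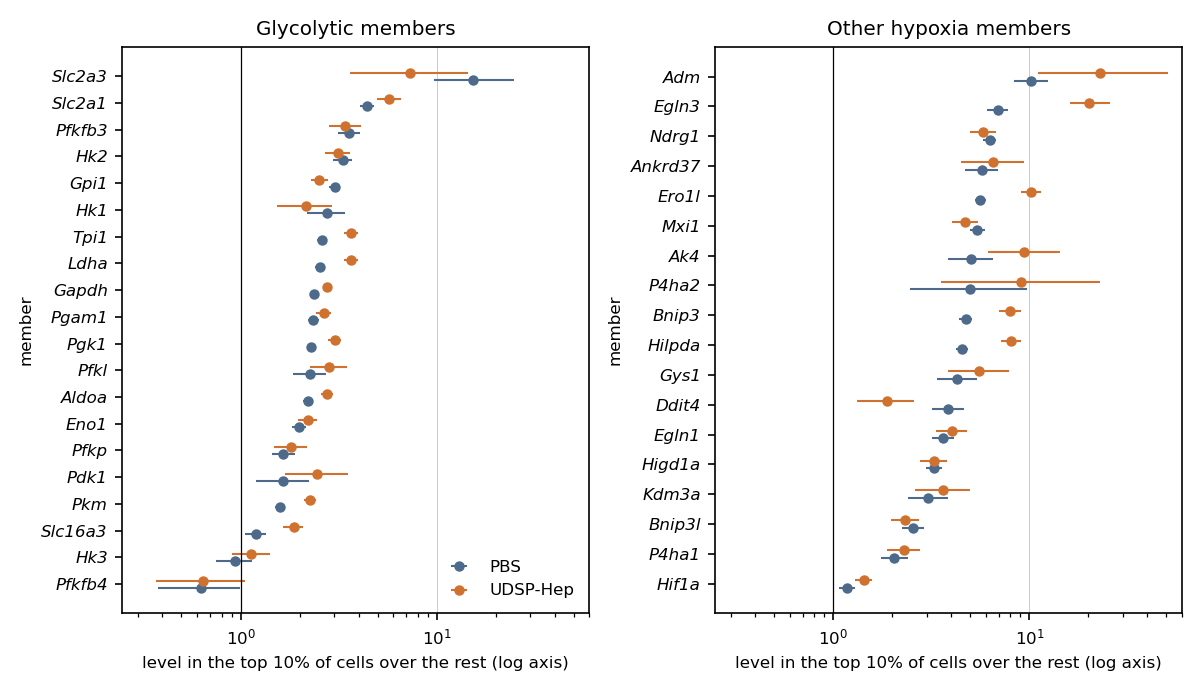
Level of each member in the 10% of phagocytes with most UMIs of the other hypoxia members, divided by its level in the remaining phagocytes (log axis), for the PBS (blue) and UDSP-Hep (orange) library; bars are 95% counting intervals and the vertical line marks equality. Most members lie to the right of the line, with Hif1a, Hk3, Pfkfb4 and Slc16a3 closest to it or to its left.

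Nos2 and Arg1, enzymes that compete for arginine and are often induced with hypoxia genes in tumour myeloid cells, split the phagocytes further. After the same thinning a Nos2 UMI was found in 7.58% (6.76 to 8.47%) of the PBS and 6.11% (5.24 to 7.07%) of the UDSP-Hep phagocytes, and an Arg1 UMI in 43.0% (41.4 to 44.6%) and 22.1% (20.6 to 23.7%), with exact binomial intervals. Without thinning the shares were 13.4% and 11.9% for Nos2 and 54.0% and 32.0% for Arg1, at median depths of 8428 and 8727 UMIs. In NK cells, which should lack both genes, the thinned shares were 0.242% and 0.884% for Nos2 and 3.14% and 1.77% for Arg1, at median depths of 4056.5 and 4001 UMIs before thinning to the same number. In cells with the Nos2 UMI 17 of 18 (PBS) and 16 of 18 (UDSP-Hep) hypoxia members were at least 1.5-fold higher than in cells without it, where 8.55% and 8.42% of all genes were. In each stratum the hypoxia median lay below that of all genes, but its size differed. It was -0.78 with and -0.91 without a Nos2 UMI, and nearer to equality in both Arg1 strata. The part that the Arg1 share has in the difference between libraries was not tested. Hypoxia members were lower in the UDSP-Hep library for 12 of 18 in cells with a Nos2 UMI (5.87% of all genes) and for 11 of 18 in cells without (3.94%). In cells with an Arg1 UMI 9 of 18 were lower (3.24% of all genes) and in cells without it 8 of 17 (2.5%), with medians of -0.57 and -0.47 against 0.14 and 0.13 for all genes. Glycolytic members were lower for 1 of 20 in cells with an Arg1 UMI and 2 of 20 in cells without, with medians of -0.32 and -0.34. In the Nos2 strata the glycolytic counts were larger, 9 of 20 lower and 1 higher (Hk3) with the UMI and 6 of 20 lower without, with medians of -0.53 and -0.52.

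The 51 further genes of the pathway were fixed by symbol as isoforms, regulators and other HIF targets. In phagocytes their median was near equality, though a larger share of them was lower than of all genes. There 45 were measured, 7 were lower and 4 higher (4.22% and 10.9% over all genes), and their median log2 ratio was 0.023 against 0.13 for all genes. The lower genes with the largest differences included Hmox1, haem oxygenase 1, at 549 and 257 CPM, Arg1 at 2152 and 912 CPM, the transcriptional repressor Bhlhe40 at 342 and 199 CPM and Fam162a at 99.1 and 56.2 CPM. Vegfa, although several-fold higher in the top cells, had a ratio of 1.08 (1.05 to 1.11) over all phagocytes.

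Neutrophils had high Slc16a3, Egln3 and Slc2a1 in both libraries, and several glycolytic members were lower in the UDSP-Hep library. Higher members were no more frequent than higher genes among all genes measured. Of 20 glycolytic members 7 were lower and 2 higher, and of 15 hypoxia members measured 3 were lower, with 10.9% of all genes lower and 11.1% higher; the median was -0.43 for glycolysis and -0.13 for hypoxia, against 0.12. Ldha was at 833 and 351 CPM, a ratio of 0.421 (0.348 to 0.512), Gpi1 (glucose-6-phosphate isomerase) at 518 and 225 CPM, a ratio of 0.433 (0.340 to 0.557), and Pfkp at 321 and 137 CPM, a ratio of 0.428 (0.315 to 0.591). Higher members were Hk3, at 198 and 311 CPM, and Pfkfb3, at 111 and 197 CPM, though the ratio of Pfkfb3 lay on the other side of equality after thinning. Ndrg1 was at 198 and 59.2 CPM, a ratio of 0.300 (0.198 to 0.464), and Bnip3l and Higd1a had ratios of 0.620 (0.444 to 0.886) and 0.575 (0.363 to 0.952). The PBS values rest on 44 cells and 162012 UMIs, and phagocyte markers stood at 25.2% of their phagocyte level in the PBS neutrophils against 11.5% in the UDSP-Hep neutrophils; the part of carried-over phagocyte RNA was not tested.

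In basophils (111 and 56 cells) Ero1l and Hilpda, both highest in this class, were both lower in the UDSP-Hep cells. Ero1l was at 1949 CPM (1833 to 2071) in PBS cells and 957 CPM (849.9 to 1074) in UDSP-Hep cells, a ratio of 0.491 (0.430 to 0.560), and Hilpda at 959 CPM (878 to 1045) in PBS cells and 605 CPM (520.3 to 699.5) in UDSP-Hep cells, a ratio of 0.631 (0.530 to 0.748). These were the 2 lower hypoxia members of 11 measured, beside 3 of 17 glycolytic members (Hk1, Tpi1 and Pkm, at ratios of 0.331, 0.431 and 0.651), with 4.39% of all genes lower and 8.31% higher. Ddit4, at 521 and 439 CPM, was highest in basophils in both libraries and did not count as lower. The phagocyte markers were at 188 and 419 CPM in basophils, against 9731 and 10697 CPM in phagocytes; their part in the ratios was not tested. The median log2 ratio was -0.20 over the glycolytic and -0.11 over the hypoxia members, against 0.084 for all genes.

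Pairs of the 3 dendritic cell classes shared some lower members, and no member was lower in all 3. Hilpda and Gys1 were lower in type 2 conventional and mature dendritic cells, Ero1l and Higd1a in type 2 conventional and plasmacytoid ones, and Bnip3l in mature and plasmacytoid ones. In type 2 conventional dendritic cells (213 and 162 cells) 9 of 16 hypoxia members and 0 of 20 glycolytic members were lower, with 2.73% of all genes lower and 5.83% higher, and medians of -0.80 for hypoxia and -0.32 for glycolysis against 0.067. Bnip3 was at 94.1 and 37.3 CPM, a ratio of 0.397 (0.307 to 0.508), Hilpda at 95.7 and 48.6 CPM, a ratio of 0.508 (0.404 to 0.635), and Ero1l at 126 and 68.8 CPM, a ratio of 0.546 (0.450 to 0.660). The others were Egln3, Ankrd37, Mxi1, Ak4, Higd1a and Gys1, with ratios between 0.216 and 0.578. After thinning to 1000 UMIs 3 hypoxia members counted as lower.

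Mature dendritic cells (161 and 48 cells), which carry Ccr7 and migrate to lymph nodes, had lower members in both lists. Higher members were about as frequent as higher genes among all genes measured. Here 7 of 18 glycolytic members and 4 of 14 hypoxia members were lower, and Pfkfb3 and Hk3 were higher, with 3.45% of all genes lower and 8.18% higher. Pgk1 was at 427 and 219 CPM, a ratio of 0.512 (0.424 to 0.615), Tpi1 at 269 and 117 CPM, a ratio of 0.434 (0.335 to 0.557), and Gapdh at 2051 and 1169.8 CPM, while Pfkfb3 was at 398 and 703 CPM, a ratio of 1.77 (1.57 to 1.99). Bnip3l was at 112 and 57.6 CPM and Ddit4 at 91.9 and 46.1 CPM, and Hilpda had a ratio of 0.498. Gys1 had 28 UMIs in the PBS cells and 0 in the UDSP-Hep cells, or 2.71-fold lower with a floor of 3 UMIs in place of 0. The counting interval of its ratio reached up to 0.484. Medians were -0.52 for the glycolytic and -0.42 for the hypoxia members (-0.45 with Gys1 at this floor), against 0.082. Hk3 was at 4.31 and 21.4 CPM, on 9 and 13 UMIs. Phagocyte markers were at 1.23% and 8.87% of their phagocyte level, and their part in the Hk3 ratio was not tested. When the classes were taken from clusters, the glycolytic median was -0.023, the hypoxia median 0.065 and the log2 ratio of Hilpda 0.41, and after thinning to 1000 UMIs the hypoxia median was 0.33.

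Plasmacytoid dendritic cells (79 and 30 cells) had 0 of 15 glycolytic and 3 of 9 hypoxia members lower, with 3.2% of all genes lower and 5.61% higher. Bnip3l was at 130.2 and 67.1 CPM and Higd1a at 102 and 44.8 CPM, and Ero1l rested on 22 and 2 UMIs. Medians were -0.089 for glycolysis and -0.048 for hypoxia, against 0.013, and the glycolytic median was 0.023 with classes from clusters.

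In CD8 T cells (558 and 465 cells) the lower members were mainly enzymes. Of 20 glycolytic members 7 were lower and Hk3 was higher, and of 17 hypoxia members 3 were lower (Ndrg1, Bnip3 and Ankrd37), with 8.68% of all genes lower and 12% higher. Gapdh was at 2148 CPM (2113 to 2184) in PBS cells and 1187 CPM (1150.4 to 1225) in UDSP-Hep cells, a ratio of 0.553 (0.533 to 0.573). Tpi1 was at 417 and 204 CPM, a ratio of 0.489 (0.449 to 0.532), and Pgk1 at 534 and 296 CPM, a ratio of 0.553 (0.515 to 0.594). Pgam1, Eno1, Pkm and Ldha were the other lower enzymes, all of the route from triose phosphate to lactate, whereas Slc2a1 and the hexokinases Hk1 and Hk2 were not among them. Hk3, a myeloid gene, was at 4.32 and 16.1 CPM, and phagocyte markers were at 2.11% and 3.50% of their phagocyte level. The glycolytic median was -0.38 and the hypoxia median -0.27, against 0.048 for all genes. Median depth was 8245.5 and 5468 UMIs per CD8 T cell. Thinned to 1000 UMIs, 6 enzymes counted as lower, and with classes from clusters 2 did, with a glycolytic median of -0.12 and a hypoxia median of 0.048.

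In regulatory T cells (180 and 243 cells) Ero1l was at 254 CPM (229 to 280.4) in PBS cells and 118 CPM (103 to 134) in UDSP-Hep cells, a ratio of 0.464 (0.394 to 0.547). With Adm, Ankrd37 and Ak4 it made 4 lower of 17 hypoxia members, and Slc2a1 and Pfkfb3 were lower of 19 glycolytic members, with 3.49% of all genes lower and 4.99% higher. Slc2a1 was at 114 and 74.1 CPM, a ratio of 0.651 (0.520 to 0.814). The hypoxia median was -0.37 and the glycolytic median -0.27, against 0.021. With classes from clusters the ratios of Slc2a1 and Pfkfb3 lay above 1 and the hypoxia median was -0.061. The T cells that fitted no subset had Slc16a3 lower of 19 glycolytic members and Ndrg1, Ero1l and Bnip3 lower of 15 hypoxia members, with 3.61% of all genes lower and 4.98% higher; Ero1l was at 126 and 69.9 CPM, a ratio of 0.553 (0.445 to 0.685).

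NK cells (452 and 1458 cells) had few members past the threshold. Of 20 glycolytic members Pdk1, the kinase that holds back pyruvate oxidation, was lower at 29.5 and 17.1 CPM, and Pfkfb4 was higher on 1 and 21 UMIs. Ankrd37 was the 1 lower of 15 hypoxia members, with 2.76% of all genes lower and 4.32% higher. The glycolytic median was -0.33 and the hypoxia median -0.20, against 0.046; with a gate margin of 0.2 the hypoxia median was 0.053. The glycolytic sum, 3654 and 2786 CPM, was lower although no glycolytic member other than Pdk1 counted as lower.

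B cells were few (46 and 64 cells). Of 10 glycolytic members measured 5 were lower, with 4.66% of all genes lower and 5.28% higher, among them Aldoa at 412 and 138 CPM, a ratio of 0.335 (0.214 to 0.515), and Tpi1 at 211 and 56.1 CPM, a ratio of 0.265 (0.129 to 0.510); Gapdh, Pkm and Ldha were the others. Hilpda was the 1 lower of 5 hypoxia members, at 194 and 64.7 CPM, and its ratio lay above 1 with a wider gate margin. Medians were -0.76 for glycolysis and -0.35 for hypoxia, against 0.063, and the hypoxia median was 0.052 with the wider margin and 0.19 with every cell weighed the same, where the log2 ratio of Pkm was 0.055.

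Conventional CD4 T cells (100 and 219 cells) were the class in which hypoxia members were higher in the UDSP-Hep library. Of 14 measured 3 were higher and 0 lower, with 5.73% of all genes higher and 3.28% lower, and the hypoxia median was 0.50 against 0.043, while the glycolytic median was -0.10, or 0.054 without the heat-shock-rich cells. Ero1l was at 99.9 CPM (76.2 to 129) in PBS cells and 373 CPM (340.0 to 409) in UDSP-Hep cells, a ratio of 3.74 (2.85 to 4.98), Hilpda at 105 and 255 CPM, a ratio of 2.43 (1.85 to 3.24), and Ndrg1 at 31.6 and 58.7 CPM. Hk2, at 34.9 and 65.9 CPM, and Slc16a3, at 59.9 and 98.9 CPM, were the 2 higher of 18 glycolytic members and Pdk1 the 1 lower. This rested on few cells: 5 of the 219 UDSP-Hep cells held 281 of 464 Ero1l UMIs (60.6%), 153 of 317 Hilpda UMIs and 46 of 73 Ndrg1 UMIs. Without the 18 PBS and 41 UDSP-Hep cells that held a UMI of the type 2 genes Il1rl1 or Il13, Ero1l was at 88.2 and 98.6 CPM (ratio 1.12, 0.756 to 1.68) and Hilpda had a ratio of 1.36 (0.874 to 2.18). Ndrg1 and Slc16a3 stayed higher, at 6.96 and 47.6 CPM and at 39.5 and 83.9 CPM, and the median over hypoxia members was 0.16.

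**Figure D4:**
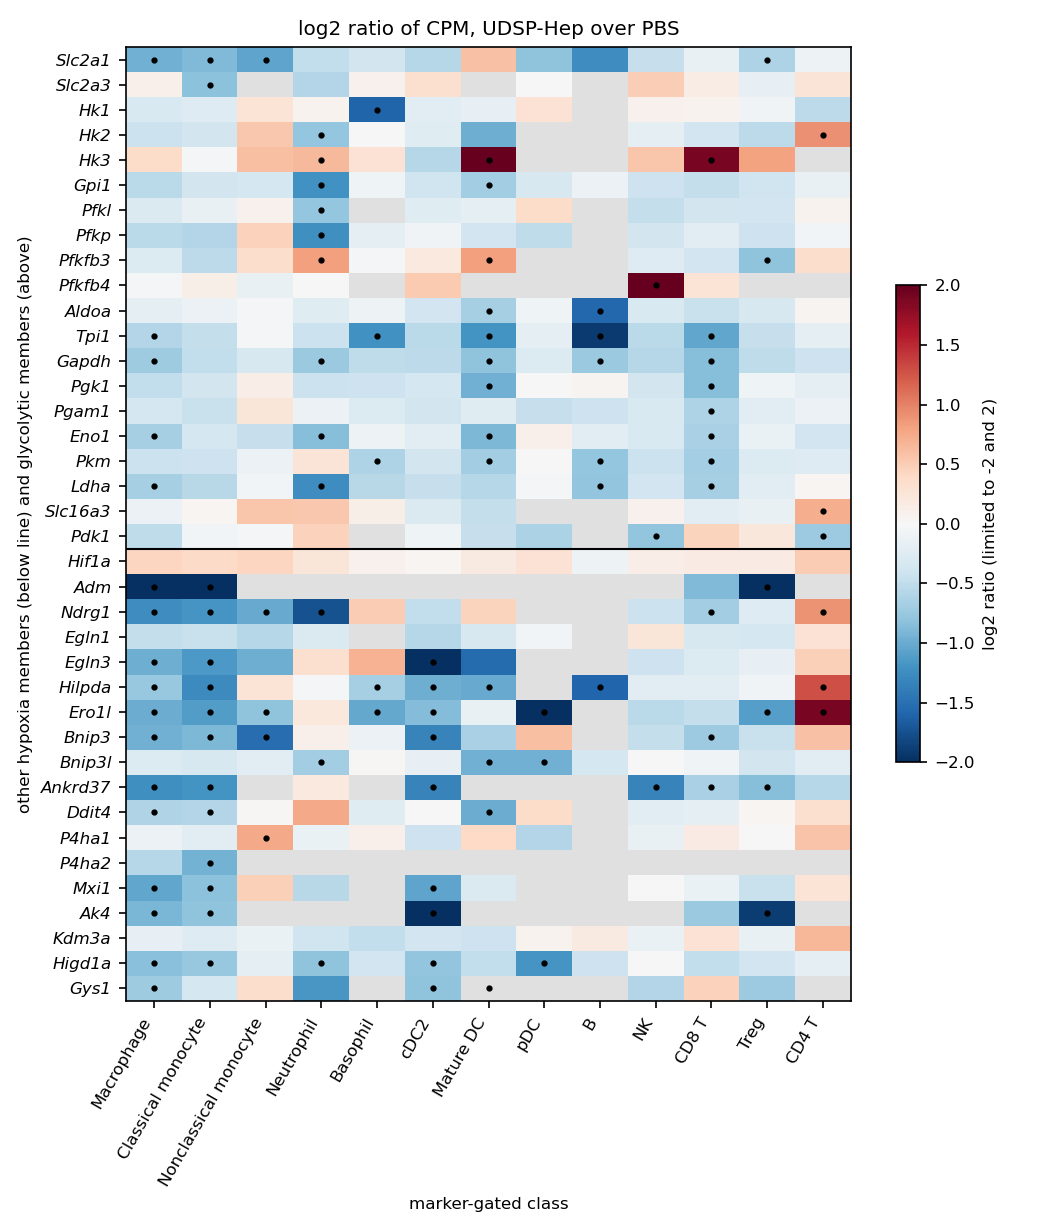
Log2 ratio of CPM, UDSP-Hep over PBS, of each member (down) in 13 classes (across); blue is lower and red higher in the UDSP-Hep library, colours end at -2 and 2, grey is not measured, and a dot marks a ratio of at least 1.5-fold either way whose counting interval leaves out equality. Gapdh, Tpi1 and Gpi1 are blue in all 13 classes, CD4 T cells hold the red Ero1l and Hilpda cells, and the grey cell with a dot is Gys1 in mature dendritic cells, at 0 UMIs in the UDSP-Hep library.

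Read by member rather than by class, the enzymes Gapdh, Tpi1 and Gpi1 had ratios below 1 in all 13 classes, and Gapdh and Tpi1 counted as lower in 5 classes each. Ero1l was lower in 7 of the 12 classes in which it was measured and higher in 1. Hilpda was lower in 6 of 12 and higher in 1, Ankrd37 lower in 6 of 8, Bnip3 and Higd1a lower in 5 each, and Ndrg1 lower in 5 and higher in 1, CD4 T cells being the class with the higher values of all 3. Adm was measured in 4 classes and lower in 3 of them, macrophages, classical monocytes and regulatory T cells. Kdm3a, Egln1 and Hif1a did not count as different in any class, and Hk3 was higher in 3 classes and lower in none. Mature dendritic and CD8 T cells, which are among these classes, held Hk3 at low levels. The part of carried-over phagocyte RNA in them was not tested. The classes share 2 libraries, so their number says nothing about how the difference would recur in other tumours. Values of Gapdh, Eno1 and Aldoa are uncertain to the extent that reads could fall on near-identical copies: the table also holds Eno1b, with 2204 and 1443 UMIs beside 31703 and 19580 for Eno1, and a second Aldoa entry with 0 UMIs.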

How the data were processed

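The data were droplet single-cell RNA counts of 2 libraries. The deposited matrices hold raw UMI counts for 32285 features, made by the authors with Cell Ranger 7.0.0 on mm10, per the submitters' processing notes, which name Seurat without a role; how the authors chose barcodes is not given there or in the labels. The PBS library had 7379 barcodes with 74685827 UMIs and the UDSP-Hep library 7872 with 64241224.

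Barcodes below 200 genes or 500 UMIs, or with 10% or more mitochondrial UMIs, were dropped, which removed 245 and 197 barcodes. Scrublet in scanpy marked 0.0138% and 0.0129% of barcodes as doublets on its own threshold, under a minimum of 0.5%; instead the top-scoring 0.8% per 1000 barcodes were removed (417 and 481). Each cell was placed in the lineage with the highest mean marker score if it held at least 2 markers and led by at least 0.1; the rest (449 and 573 cells) stayed ungated. T cells were split by Foxp3, Cd8a, Cd8b1 and Cd4, and phagocytes by macrophage and monocyte scores with the same margin. The kept cells had 66102473 and 55827476 UMIs, and counts were summed per class and library.

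Levels have exact Poisson intervals and ratios exact conditional binomial intervals, at 95%. A member counted as higher or lower at a ratio of at least 1.5 either way whose interval left out equality, if it had at least 20 summed UMIs. No p-value was computed, since each group has 1 library. The ratio code was tested on simulated data. Members, lists, gates and rules were chosen with earlier results of these data known. In each class values are given for up to 3 members per list and direction with at least 50 CPM, ranked by the interval bound nearest to equality; all 38 are given for phagocytes. Members named elsewhere below 50 CPM, and Vegfa, C1qa and Ly6c2, were singled out after their values were seen. Alternatives covered UMI and mitochondrial limits, doublets, gate margin, Leiden classes (2000 genes, 30 components, 15 neighbours, resolution 1), cell weighting, thinning, scaling and the UMI minimum; leaving out heat-shock-rich cells or cells with type 2 genes was added after seeing the data. Software was Python with numpy, scipy, pandas and scanpy.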

Additional observations from a re-analysis of the deposited data

How the results depend on the processing

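Of 333 list medians recomputed under the alternatives, 308 stayed within the main median's order-statistic interval on the same side of 0. The others follow, as log2 ratios of UDSP-Hep over PBS; the cause was not tested. With a gate margin of 0.2 they were -0.20 for glycolysis in type 2 dendritic cells, and 0.052 in B and 0.053 in NK cells for hypoxia. With classes from Leiden clusters the glycolysis medians were -0.49 in classical monocytes, -0.023 in mature and 0.023 in plasmacytoid dendritic cells and -0.12 in CD8 T cells, and the hypoxia medians 0.013 in nonclassical monocytes, 0.065 in mature dendritic cells, 0.048 in CD8 T cells and -0.061 in regulatory T cells. With every cell weighed the same, hypoxia was -1.02 in macrophages and 0.19 in B cells, and glycolysis -0.42 in type 2 dendritic cells. Thinned to 1000 UMIs, glycolysis was -0.61 in macrophages, -0.54 in classical monocytes and -0.58 in type 2 dendritic cells, and hypoxia -1.08 in macrophages, 0.045 in nonclassical monocytes and 0.33 in mature dendritic cells. Median-of-ratios scaling, which shifts all values by up to 0.15, gave glycolysis -0.60 in phagocytes and -0.51 in classical monocytes. Over members with at least 100 UMIs, hypoxia in nonclassical monocytes was 0.029. Without heat-shock-rich cells it was 0.39, and glycolysis in CD4 T cells 0.054. Of 666 recomputed counts of lower or higher members, 536 stayed the same and 130 moved. Of 1459 recomputed member ratios, 1169 were labelled the same and 278 moved, apart from those that changed sign. Single members changed sign in 12 of 1459 recomputed values: Hilpda in B cells (0.45, margin 0.2); Slc2a1 (0.27), Ndrg1 (0.16) and Bnip3 (0.013) in nonclassical monocytes, Hilpda in mature dendritic cells (0.41) and Slc2a1 (0.39) and Pfkfb3 (0.086) in regulatory T cells with Leiden classes; Pkm in B cells (0.055, cells weighed the same); P4ha1 in nonclassical monocytes (-0.24) and Pfkfb3 in neutrophils (-0.038) after thinning; Slc2a1 (0.15) and Bnip3 (0.48) in nonclassical monocytes without heat-shock-rich cells. No value was obtained for CD4 T cells with Leiden classes, for hypoxia in B and plasmacytoid dendritic cells after thinning or at 100 UMIs, or for glycolysis in B cells at 100 UMIs. No paired analysis was possible because each group has 1 library. Depth limits the small classes most: the neutrophils of the PBS library had 162012 UMIs and its B cells 174951.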
